A study of Mus musculus with 8 samples.

Results

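The genes described here set the pace of the G1 phase of the cell cycle and were measured in tumor and in small intestine of Apc mutant mice. They are the D-type cyclins Ccnd1, Ccnd2 and Ccnd3, the E-type cyclin Ccne1, the kinase Cdk6, and the CDK inhibitors Cdkn1a, Cdkn1b, Cdkn1c, Cdkn2a and Cdkn2b. The genes were chosen as a named list and matched by symbol, and all 10 were found among the 43629 genes of the count table and the 43437 genes of the FPKM table. FPKM is a level scaled for library size and gene length. Each of the 10 passed the filter on low counts, as did 17029 genes in all. The 8 libraries of polyadenylated RNA comprise 4 from tumor and 4 from small intestine. Every mouse group carried the genotype label APC mutant on the strain C57B6/129 and the treatment label none, so both tissues share the mutation. The allele, the age of the mice and the origin of each library from a separate animal are not stated in the labels, so the p-values reflect the spread between these libraries alone, and that spread may be technical.

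D-type cyclins bind CDK4 or CDK6, and cyclin E binds CDK2. The resulting kinases phosphorylate the retinoblastoma protein and its relatives, which releases E2F transcription factors and lets the cell enter S phase. The INK4 inhibitors, here p16 from Cdkn2a and p15 from Cdkn2b, block CDK4 and CDK6, whereas the Cip/Kip inhibitors p21 (Cdkn1a), p27 (Cdkn1b) and p57 (Cdkn1c) bind cyclin-CDK complexes more broadly. In the intestinal lining, cells divide in the crypt and leave the cycle as they move onto the villus, and Apc restrains the Wnt signal that keeps crypt cells dividing.

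Library totals were 53856561 to 67371180 counts in tumor and 62347648 to 84433335 counts in small intestine, and 3 counts correspond to 0.0331 to 0.0419 CPM in tumor and 0.0517 to 0.0630 CPM in small intestine. Of tumor counts, 10.4% to 11.4% came from the 50 most abundant genes, against 21.5% to 22.9% of small intestine counts. The TMM factors, which adjust for differences in library composition, were 1.33 to 1.38 in tumor and 0.687 to 0.788 in small intestine. They do not rest on those 50 genes alone, since TMM without them left the direction and call of all 10 genes the same. CPM below is the count scaled by library total and by these factors. The median log2 fold change of all genes tested was 0.07 on this scale and 0.93 when only library totals were used, a shift of 0.86, so counts of calls and the directions that depend on the scaling are given under both. The tissue labels were set against marker lists of 6 genes each. Enterocyte markers summed to 678 to 973 CPM in tumor and 45533 to 58658 CPM in small intestine, and 6 of 6 fell under either scaling. Markers of epithelium summed to 5862 to 8079 CPM in tumor and 13555 to 18208 CPM in small intestine, with 1 of 6 higher and 5 of 6 lower, or 2 higher and 3 lower under library totals. Markers of proliferating cells, fibroblasts and endothelium were higher in tumor for 6 of 6 genes of each list, again under either scaling. No marker was at 0 counts in any library.

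Of the 10 genes, 4 rose in tumor relative to small intestine (Ccnd1, Ccnd3, Ccne1 and Cdkn1c) and 3 fell (Cdkn1a, Cdkn1b and Cdkn2b) in edgeR's quasi-likelihood test on TMM-scaled counts at a Benjamini-Hochberg adjusted p under 0.05 over all genes tested. Ccnd2, Cdk6 and Cdkn2a did not pass. Among all genes tested 38.9% were called higher and 35.4% were called lower, so the share of these 10 genes that was called is near that of genes at large. The CPM ranges of the groups did not overlap for 7 of the 10, and the same held for 70.5% of all genes tested. Cdkn2b had the lowest fold change of the 10, with 4.63% of tested genes lower than it, and Cdkn1c had the highest, with 88.0% of tested genes lower.

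**Figure D1:**
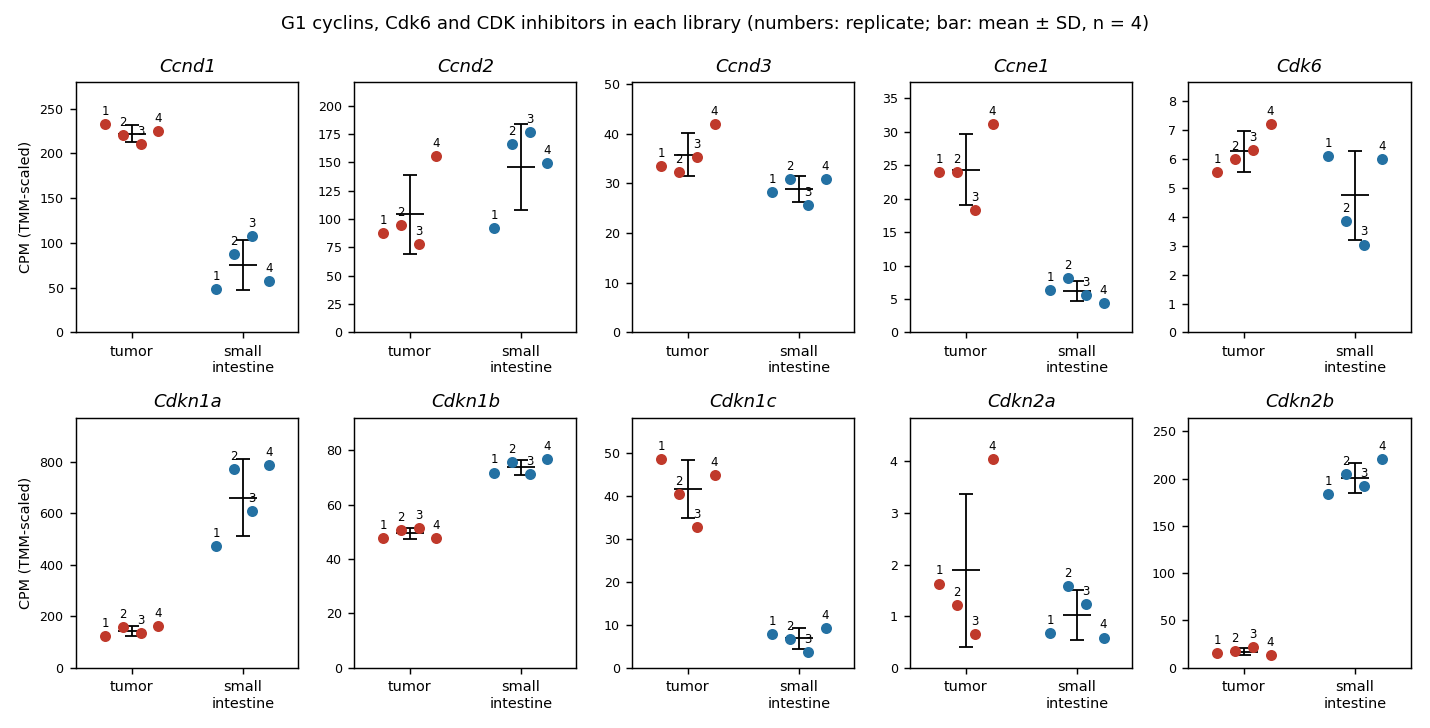
Normalised counts (CPM, TMM-scaled, linear axes that start at 0) of the 10 genes, with a point numbered by replicate for each library, tumor left of small intestine in each panel, and bars of mean ± SD (n = 4). The groups are apart for 7 genes and overlap for Ccnd2, Cdk6 and Cdkn2a, where tumor replicate 4 at 4.04 CPM stands above the other tumor libraries.

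Ccnd1 encodes cyclin D1, which is known as a Wnt-responsive gene in colon cancer cells. It lies at chr7:144929931-144939925 on the minus strand (GRCm38). Ccnd1 was at 233, 220.2, 211 and 225 CPM in tumor replicates 1 to 4, against 48.0, 87.6, 108 and 57.1 CPM in small intestine replicates 1 to 4. Every tumor library was above every small intestine library, and the tumor libraries lay closer together than the small intestine libraries did. The mean was 2.95-fold higher in tumor (222 ± 9.28 CPM, against 75.2 ± 27.7 CPM in small intestine; SD, n = 4 each), and the log2 fold change was 1.56 ± 0.24 (SE; edgeR adjusted p = 0.000226). Using library totals gave 2.43. Fewer cells of a type and less RNA per cell cannot be told apart in these bulk samples, here and in all that follows. The 6 markers of proliferating cells moved with Ccnd1, with sums of 719, 735, 712 and 892 CPM in tumor, against 183, 236, 308 and 165 CPM in small intestine. Among the small intestine libraries, replicate 3 was highest in both Ccnd1 and these markers, whereas in tumor Ccnd1 was highest in replicate 1 and the markers in replicate 4. The part of proliferating cells in the result was not tested. Ccnd1 overlaps the opposite-strand gene LTO1 by 1771 bp, and whether reads were counted by strand is not given in the sources used here.

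Ccnd2 (chr6:127125162-127152193, minus strand) encodes cyclin D2, a second partner of CDK4 and CDK6. It was at 87.9, 95.1, 78.1 and 156 CPM in tumor replicates 1 to 4 and at 91.8, 166, 177 and 149.5 CPM in the small intestine replicates in the same order. The groups overlapped, since tumor replicate 4 lay among the 3 higher small intestine libraries and small intestine replicate 1 lay among the 3 lower tumor libraries. On the log2 scale its change of -0.49 ± 0.26 did not pass (edgeR adjusted p = 0.113). It passed without tumor replicate 4 (-0.70, adjusted p = 0.0163) or without small intestine replicate 1 (-0.67, adjusted p = 0.029), and its sign turned under library totals (0.39, adjusted p = 0.189). T cell markers summed to 12.9 to 24.8 CPM in tumor and 49.0 to 196 CPM in small intestine, with 6 of 6 lower (4 of 6 under library totals) and the highest sums in tumor replicate 4 and small intestine replicate 2. Ccnd2 was also highest in tumor replicate 4, but in small intestine it was highest in replicate 3. B and plasma cell markers were lower for 4 of 6 genes under either scaling. They summed to 182 to 860 CPM in tumor and 176 to 1009 CPM in small intestine. Macrophage markers were higher for 5 of 6 genes and smooth muscle markers for 4 of 6 (6 of 6 each under library totals). The part of any of these lists in the level of Ccnd2 was not tested.

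Ccnd3 (chr17:47505051-47599691, plus strand) encodes cyclin D3. It was at 33.6, 32.2, 35.3 and 41.9 CPM in the tumor libraries, against 28.2, 30.9, 25.6 and 30.9 CPM in the small intestine libraries. The groups did not overlap, but the lowest tumor library and the highest small intestine library were close. Its log2 fold change was 0.31 ± 0.11 (edgeR adjusted p = 0.0302), and the call was lost without small intestine replicate 1 (0.29, adjusted p = 0.0673) or replicate 3 (0.25, adjusted p = 0.0673). Under library totals it was 1.18. Ccnd3 shares 361 bp with the opposite-strand gene Bysl.

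Ccne1 (chr7:38097984-38107534, minus strand) encodes cyclin E1, the partner of CDK2 at the entry into S phase and itself a known E2F target. Ccne1 stood at 23.95, 23.97, 18.3 and 31.2 CPM in tumor, against 6.41, 8.13, 5.65 and 4.47 CPM in small intestine. The lowest tumor library was above the highest small intestine library by more than the whole range of the small intestine group. The mean was 3.95-fold higher in tumor (24.3 ± 5.29 CPM, against 6.16 ± 1.54 CPM in small intestine; SD, n = 4 each), and the log2 fold change was 1.98 ± 0.22 (edgeR adjusted p = 3.09e-05). Under library totals it was 2.84. Cdk6 (chr5:3341485-3531008, plus strand), a kinase that D-type cyclins activate, was at 5.55, 5.99, 6.31 and 7.22 CPM in tumor, against 6.09, 3.85, 3.04 and 6.02 CPM in small intestine. Small intestine replicates 1 and 4 lay within the tumor range and the other 2 below it. At 0.40 ± 0.25 on the log2 scale Cdk6 did not pass (edgeR adjusted p = 0.174), whereas under library totals it was 1.27 (adjusted p = 0.00133).

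The start of Ccne1 is shown because this gene rose the most among the 4 cyclins described here. The sequence is from RefSeq (GRCm38.p6), chr7:38107491-38107590 on the minus strand, and covers bases 100 to 1 before the start site. Capitals mark GGGCGG, the GC box bound by factors of the Sp family.
Ccne1: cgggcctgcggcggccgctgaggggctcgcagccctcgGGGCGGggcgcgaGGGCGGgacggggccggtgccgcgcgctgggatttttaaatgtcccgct

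Cdkn1a (chr17:29090976-29100727, plus strand) encodes p21, which p53 induces after DNA damage and which is made by non-dividing cells of the gut lining. It was at 122, 157, 135 and 164 CPM in tumor replicates 1 to 4, against 471, 773, 609 and 786 CPM in small intestine replicates 1 to 4. Every tumor library was far below every small intestine library. The mean was 4.57-fold lower in tumor (144 ± 19.6 CPM, against 660 ± 149 CPM in small intestine; SD, n = 4 each), and the log2 fold change was -2.19 ± 0.19 (edgeR adjusted p = 5.44e-06). The fall held under library totals (-1.31, adjusted p = 4.56e-05). The enterocyte markers fell with it in 6 of 6 genes. Replicate 4 was the highest small intestine library for both Cdkn1a and the marker sum. In tumor, replicate 4 was the highest for Cdkn1a and the lowest for the marker sum (678 CPM). The part of enterocytes in the level of Cdkn1a was not tested.

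Cdkn1a has 2 start sites in the RefSeq table, and a count per gene does not separate them. The stretches shown are the ones in which motif letters were found. For the upstream site, bases 80 to 26 before the start are given (RefSeq, GRCm38.p6, chr17:29090899-29090953, plus strand), with capitals at matches to the p53 half-site. For the downstream site, bases 100 to 1 are given (chr17:29093669-29093768, plus strand), with capitals at GGGCGG, the first of which begins before the window.
Cdkn1a upstream start: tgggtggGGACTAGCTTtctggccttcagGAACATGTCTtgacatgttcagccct
Cdkn1a downstream start: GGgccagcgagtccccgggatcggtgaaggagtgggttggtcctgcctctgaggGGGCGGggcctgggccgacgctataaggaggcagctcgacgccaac

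Cdkn1b (chr6:134920401-134925513, plus strand) encodes p27, whose protein level is largely set by degradation. It was at 47.7, 50.6, 51.5 and 47.9 CPM in tumor, against 71.8, 75.7, 71.2 and 76.7 CPM in small intestine. Both groups were tight and apart. The log2 fold change was -0.58 ± 0.07 (edgeR adjusted p = 6.74e-05), but the direction turned under library totals (0.29, adjusted p = 0.00309) and in the FPKM table (0.31 ± 0.06, limma adjusted p = 0.00114). Whether Cdkn1b RNA was lower or higher in tumor therefore depends on the scaling between the tissues.

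Cdkn1c (chr7:143458339-143461050, minus strand) encodes p57 and is an imprinted gene, active on the maternal chromosome. Cdkn1c stood at 48.6, 40.5, 32.8 and 45.1 CPM in tumor, against 7.85, 6.63, 3.67 and 9.23 CPM in small intestine. The groups were far apart, with replicate 3 the lowest of each. The mean was 6.10-fold higher in tumor (41.8 ± 6.81 CPM, against 6.84 ± 2.36 CPM in small intestine; SD, n = 4 each), and the log2 fold change was 2.61 ± 0.27 (edgeR adjusted p = 1.71e-05). Under library totals it was 3.48. Fibroblast markers, of which 6 of 6 rose, summed to 1155 to 1859 CPM in tumor and 17.1 to 61.0 CPM in small intestine. Endothelial markers, also 6 of 6 higher, summed to 179 to 233 CPM in tumor and 8.0 to 24.1 CPM in small intestine. In tumor, Cdkn1c and the fibroblast markers were highest in replicate 1 and the endothelial markers in replicate 4. In small intestine, Cdkn1c was highest in replicate 4, whereas both marker sums were highest in replicate 1 and the endothelial sum was lowest in replicate 4. The part of either list in the level of Cdkn1c was not tested.

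Cdkn2b (chr4:89306299-89311039, minus strand) encodes p15, an INK4 inhibitor known as a target of TGF-beta signalling. Cdkn2b was at 15.7, 17.6, 21.6 and 14.0 CPM in tumor replicates 1 to 4, against 184, 205, 192 and 220.3 CPM in small intestine replicates 1 to 4. No tumor library came near the small intestine range. The mean was 11.6-fold lower in tumor (17.2 ± 3.26 CPM, against 200.5 ± 15.9 CPM in small intestine; SD, n = 4 each), and the log2 fold change was -3.54 ± 0.15 (edgeR adjusted p = 1.02e-07). It was -2.68 under library totals. Enterocyte marker sums of 687, 973, 770 and 678 CPM in tumor, against 48719, 51770, 45533 and 58658 CPM in small intestine moved with it. Replicate 4 was the highest small intestine library for both, whereas in tumor Cdkn2b was highest in replicate 3 and the markers in replicate 2. The part of enterocytes in the result was not tested.

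Cdkn2a (chr4:89274471-89294653, minus strand) lies 11646 bp from Cdkn2b and encodes p16 and, from another first exon, the p53 activator Arf. Its counts were 148, 99, 47 and 358 in tumor and 39, 90, 59 and 34 in small intestine, or 1.63, 1.23, 0.66 and 4.04 CPM in tumor, against 0.68, 1.59, 1.24 and 0.59 CPM in small intestine. The groups overlapped, tumor replicate 4 was the highest library of all, and the tumor libraries spanned a 6.15-fold range. At 0.89 ± 0.56 on the log2 scale Cdkn2a did not pass (edgeR adjusted p = 0.181) and came to 0.24 without tumor replicate 4 (adjusted p = 0.656). Under library totals it was 1.76 (adjusted p = 0.0206).

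The starts of Cdkn2a and Cdkn2b are shown because the neighbours differ in level and because the starts of p16 and Arf, 12427 bp apart, are joined in the gene count of Cdkn2a. The sequences are from RefSeq (GRCm38.p6), minus strand, bases 100 to 1 before each start, with GGGCGG in capitals. The Arf side is chr4:89294620-89294719, the p16 side is chr4:89282193-89282292, and Cdkn2b is chr4:89311033-89311132.
Cdkn2a Arf start: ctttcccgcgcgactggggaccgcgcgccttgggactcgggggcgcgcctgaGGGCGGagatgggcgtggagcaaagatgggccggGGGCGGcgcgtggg
Cdkn2a p16 start: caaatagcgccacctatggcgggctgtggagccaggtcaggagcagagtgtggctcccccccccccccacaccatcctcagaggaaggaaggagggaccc
Cdkn2b: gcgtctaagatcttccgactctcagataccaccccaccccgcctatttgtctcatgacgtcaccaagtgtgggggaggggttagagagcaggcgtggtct

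Motif letters were searched on both strands in the 250 bases before each start of 10 windows, which belong to 7 of the genes (Ccnd3, Ccne1, Cdk6, Cdkn1a, Cdkn1b, Cdkn2a and Cdkn2b). GGGCGG was in 6 of the 10 windows, among them all those of Ccnd3, Ccne1 and Cdkn1b, and in 32.7% of 32851 windows of the same length. The E2F letters TTTNNCGC were in 3 of 10 windows (Cdk6 and both starts of Cdkn2a), against 4.28% of all windows. The E-box CACGTG was in 1 of 10 (Cdk6) against 6.02%, the p53 half-site was in 1 of 10 (the upstream start of Cdkn1a) against 7.13%, and the TCF letters CTTTGAT were in 0 of 10 against 3.21%. The window of Cdkn2b, the gene that fell the most, held none of these letters. No match overlapped a match of another motif, and a match is a description of letters, not a bound site.

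**Figure D2:**
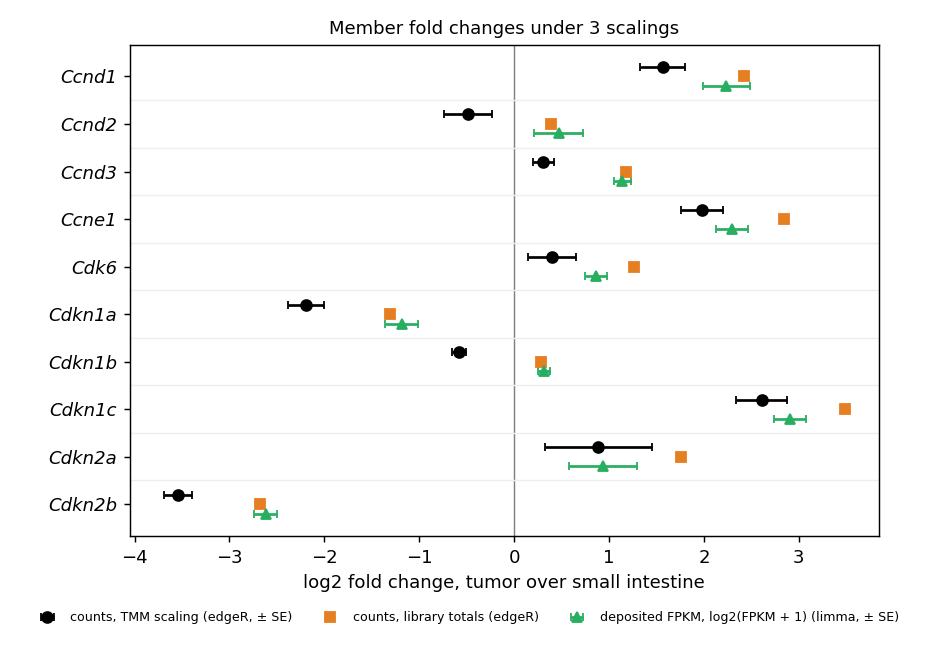
The log2 fold change (tumor over small intestine) of each gene from TMM-scaled counts, from counts scaled by library totals and from deposited FPKM on the log2(FPKM + 1) scale, with bars of ± SE where shown. Ccnd1, Ccnd3, Ccne1 and Cdkn1c lie right of 0 and Cdkn1a and Cdkn2b left of 0 under all 3, whereas Ccnd2 and Cdkn1b change side.

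The number of genes called depended on the scaling. Under library totals 7 of the 10 were higher and 2 lower, beside 62% and 17.6% of all genes tested. In the FPKM table, tested with limma on log2(FPKM + 1) after leaving out genes with a mean under 1, 7 were higher and 2 lower, beside 64.6% and 18.1% of the genes tested there. The calls of 6 genes had the same direction in each of the 3 fits, namely Ccnd1, Ccnd3, Ccne1 and Cdkn1c higher and Cdkn1a and Cdkn2b lower. Ccnd2 was called in none of the 3. The sign of Ccnd2 in FPKM was opposite to that in TMM-scaled counts (0.47 ± 0.26, limma adjusted p = 0.125). The FPKM log2 fold changes of the called genes other than Cdkn1b were 2.24 ± 0.25 for Ccnd1, 1.14 ± 0.09 for Ccnd3, 2.29 ± 0.17 for Ccne1, 2.91 ± 0.17 for Cdkn1c, -1.19 ± 0.18 for Cdkn1a, -2.62 ± 0.12 for Cdkn2b, 0.86 ± 0.12 for Cdk6 and 0.94 ± 0.36 for Cdkn2a. The limma call of Cdkn2a (adjusted p = 0.0359) was lost without tumor replicate 4 (0.59, adjusted p = 0.05004). It was also lost without tumor replicate 1 or small intestine replicate 1, 3 or 4, with adjusted p-values from limma of 0.0505 to 0.0884, and when low values were not filtered (adjusted p = 0.0674).

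Levels can be set side by side between genes only per length, so FPKM is used here. In tumor the highest mean levels were those of Cdkn1a (96.4 FPKM) and Ccnd1 (92.7 FPKM), whose ranges overlapped. Ccnd3 (30.2 FPKM), Cdkn1b (25.6 FPKM), Ccnd2 (22.6 FPKM), Cdkn1c (21.9 FPKM), Cdkn2b (14.3 FPKM) and Ccne1 (13.6 FPKM) followed, and Cdkn2a (2.75 FPKM) and Cdk6 (2.56 FPKM) came last. Only the steps below Ccnd1, below Ccnd3 and below Ccne1 separated neighbours whose ranges did not overlap. In small intestine the order was Cdkn1a (223 FPKM), Cdkn2b (91.8 FPKM), Cdkn1b (20.5 FPKM), Ccnd1 (20.1 FPKM), Ccnd2 (15.8 FPKM), Ccnd3 (13.1 FPKM), Cdkn1c (2.07 FPKM), Ccne1 (1.96 FPKM), Cdk6 (0.965 FPKM) and Cdkn2a (0.799 FPKM). There the steps below Cdkn1a, Cdkn2b, Ccnd3 and Ccne1 separated neighbours without overlap. Cdkn1a headed both orders, and Cdkn2b came next in small intestine but lay below 6 of the genes in tumor.

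A share of a gene family within a library does not change with the scaling between libraries. Ccnd1 made up 66.9%, 65.6%, 65.5% and 57.9% of the summed FPKM of the 3 D-type cyclins in tumor replicates 1 to 4, against 37.6%, 40.3%, 49.6% and 31.5% in small intestine. The mean share was 24.2 percentage points higher in tumor (64.0% ± 4.09, against 39.8% ± 7.53 in small intestine; SD, n = 4 each; exact 2-sided permutation p = 0.0286, adjusted over 6 shares 0.0343). In FPKM Ccnd1 led the D-type cyclins in each tumor library, whereas Ccnd2 led in small intestine replicate 4. This order depends on the scaling for length, since Ccnd2 had more counts than Ccnd1 in each small intestine library. The share of Ccnd2 was 15.3% ± 3.92 in tumor and 32.2% ± 4.21 in small intestine, a difference of -17.0 points with the same p-values. The shares of the 3 cyclins are parts of the same sum. Those of Ccnd2 and Ccnd3 therefore also move with the level of Ccnd1 and are not separate results. The level of Ccnd2 itself was 22.6 FPKM in tumor, against 15.8 FPKM in small intestine, with overlapping ranges. The Ccnd3 share did not pass (20.8% ± 1.11 in tumor, 28.0% ± 6.65 in small intestine, exact permutation p = 0.143). The summed level of the 3 cyclins was 144, 141, 132 and 165 FPKM in tumor and 36.6, 55.3, 63.1 and 41.2 FPKM in small intestine.

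Among the Cip/Kip inhibitors Cdkn1a took the largest share in every library, with 61.3%, 68.7%, 67.3% and 69.8% in tumor and 88.1%, 92.0%, 90.6% and 91.6% in small intestine. The difference was -23.8 points (66.8% ± 3.80 in tumor, 90.6% ± 1.77 in small intestine; exact 2-sided permutation p = 0.0286, adjusted 0.0343). Cdkn1b had 18.0% ± 1.90 in tumor and 8.56% ± 1.55 in small intestine, a difference of 9.40 points. Cdkn1c had 15.3% ± 2.66 in tumor and 0.871% ± 0.331 in small intestine, a difference of 14.4 points, and the p-values of both were those of Cdkn1a. With 4 libraries against 4 no exact p can be smaller than 0.0286. The 3 shares sum to 100% and Cdkn1a holds most of the sum, so the shares of Cdkn1b and Cdkn1c also move with the level of Cdkn1a and are not separate results. The level of Cdkn1b itself was 25.6 FPKM in tumor, against 20.5 FPKM in small intestine.

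**Figure D3:**
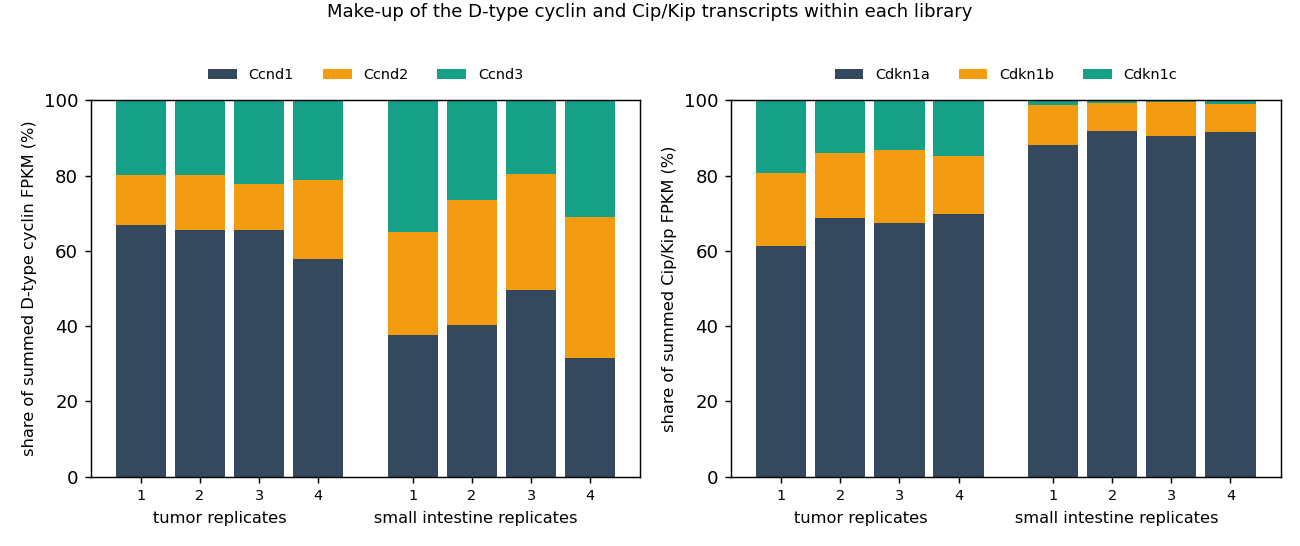
Percent of the summed FPKM of the D-type cyclins and of the Cip/Kip inhibitors taken by each gene, as 1 stacked bar per library with the tumor libraries left of the small intestine libraries. Ccnd1 took 57.9% to 66.9% of D-type cyclin FPKM in tumor and 31.5% to 49.6% in small intestine, and Cdkn1c took 13.3% to 19.2% of Cip/Kip FPKM in tumor and 0.535% to 1.32% in small intestine.

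Ratios of inhibitor to cyclin within a library are given as a description, without a test, since they reuse the levels above. Cdkn1a over Ccnd1 was 0.840, 1.14, 1.01 and 1.18 in tumor and 11.9, 12.1, 6.66 and 19.1 in small intestine. Both genes were thus near equal per length in each tumor library. Cdkn1b over Ccne1 was 1.96, 2.01, 2.43 and 1.43 in tumor, against 9.69, 8.33, 11.1 and 14.5 in small intestine. Cdkn2b over Cdkn2a, the INK4 pair, was 5.62, 7.95, 17.9 and 1.996 in tumor and 151, 77.8, 87.8 and 280.5 in small intestine, so Cdkn2b exceeded Cdkn2a in all 8 libraries and by less in each tumor library than in any small intestine library.

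Genes that act with these 10 in G1 were read as lists, each described by its counts and chosen with earlier results of these data known. Counts are from TMM-scaled counts, with those under library totals beside them, and are read against all genes tested, of which 38.9% rose and 35.4% fell with TMM (median 0.07) and 62% rose and 17.6% fell under library totals (median 0.93). The 10 genes had a median log2 fold change of 0.35 with TMM and 1.22 under library totals. Of the 7 genes of G1 kinases, cyclin E2 and CDK activation, 5 rose and 1 fell, with a median of 0.68, and 6 rose and 0 fell under library totals (median 1.57). Cdk4, the main partner of the D-type cyclins, averaged 265 ± 8.10 CPM in tumor, against 65.5 ± 12.8 CPM in small intestine (log2 fold change 2.02 ± 0.14, edgeR adjusted p = 1.57e-06, and 2.88 under library totals). Cdk2, the partner of cyclin E, rose by 0.82 ± 0.08 on the log2 scale, and by 1.68 under library totals. Ccne2, the other E-type cyclin, did not pass at 0.68 ± 0.32 (edgeR adjusted p = 0.0794), whereas under library totals it passed at 1.57 (edgeR adjusted p = 0.00107). With TMM it passed without small intestine replicate 2 (0.86, adjusted p = 0.0472) or replicate 4 (0.89, adjusted p = 0.0361). Cdc25a, a phosphatase that activates CDKs, fell with -0.86 ± 0.10 but was at 0.01 under library totals. In the retinoblastoma family 0 of 3 rose and 2 fell with TMM, 1 rose when small intestine replicate 2 was left out, and 1 rose and 1 fell under library totals. Rb1 averaged 26.5 ± 4.29 CPM in tumor, against 108 ± 31.4 CPM in small intestine (log2 fold change -2.03 ± 0.21, edgeR adjusted p = 1.99e-05, and -1.16 under library totals), and Rbl2 fell with -0.80 but was at 0.07 under library totals. Of the other INK4 genes Cdkn2c was at 0.01 ± 0.14 and did not pass, whereas under library totals it was 0.87 (edgeR adjusted p = 0.000425). Cdkn2d was at -0.41 ± 0.16, which passed (edgeR adjusted p = 0.0450). Under library totals it turned to 0.45 and passed in the opposite direction (edgeR adjusted p = 0.0418). The TMM call of Cdkn2d was lost without any single library other than small intestine replicate 4, with adjusted p-values from edgeR of 0.0634 to 0.128.

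Downstream of the retinoblastoma proteins, 6 of 10 E2F and DP factors rose and 3 fell with TMM (median 0.60), whereas 8 rose and 0 fell under library totals (median 1.47). E2f1, an activator of S phase genes, averaged 19.5 ± 2.07 CPM in tumor, against 6.84 ± 1.75 CPM in small intestine (1.51 ± 0.20, edgeR adjusted p = 8.96e-05, and 2.36 under library totals). E2f7 (2.10) and E2f6 (1.40), both repressors, also rose, and E2f5 fell with -1.03 (under library totals -0.17, not passing). Of 16 E2F targets at the G1/S transition 15 rose and 1 fell, with a median of 1.83, and 15 rose and 0 fell under library totals (median 2.70). Mcm4 (2.31) and Mcm2 (2.16) of the replicative helicase and its loader Cdc6 (2.14) rose the most. Among the 8 genes of ubiquitin ligases of G1 regulators 4 rose and 3 fell with TMM (median 0.21), whereas 6 rose and 0 fell under library totals (median 1.08). Skp2 (1.42) and its cofactor Cks1b (2.14), which mark p27 for degradation, rose, and Fbxo4 fell with -0.78 but was at 0.09 under library totals.

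Upstream, 7 of 13 genes of p53 and its targets other than Cdkn1a rose and 4 fell with TMM (median 0.25), whereas 11 rose and 0 fell under library totals (median 1.11). Trp53 averaged 121 ± 13.3 CPM in tumor, against 42.7 ± 2.67 CPM in small intestine (1.5 ± 0.10, edgeR adjusted p = 1.21e-06, and 2.37 under library totals). The p53 targets Phlda3 (5.40), Eda2r (5.15) and Gdf15 (2.09) rose the most in this list. Eda2r had only 2 to 7 counts per small intestine library, against 78 to 643 in tumor, so the size of its change is uncertain. With TMM 4 of the 13 fell, as did Cdkn1a, also a p53 target, which fell under library totals too. Btg2 fell with -1.005 and did not pass under library totals at -0.13. Of 14 known transcriptional regulators of these genes 6 rose and 6 fell with TMM (median -0.08), whereas 9 rose and 4 fell under library totals (median 0.79). Myc, known to repress Cdkn1a and Cdkn2b and to induce Ccnd2, averaged 118 ± 25.9 CPM in tumor, against 19.3 ± 5.51 CPM in small intestine (2.62 ± 0.24, edgeR adjusted p = 8.83e-06, and 3.47 under library totals). Klf4, a factor of differentiated gut cells known to activate Cdkn1a, averaged 66.6 ± 6.70 CPM in tumor, against 634 ± 218 CPM in small intestine (-3.25 ± 0.25, edgeR adjusted p = 2.49e-06, and -2.37 under library totals). Cdx2, an intestinal factor, fell with -2.32, and with -1.44 under library totals.

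Around Cdkn1c, 5 of 9 genes of the same imprinted region and its flanks rose and 2 fell with TMM (median 0.34), and 7 rose and 1 fell under library totals (median 1.2). Phlda2 averaged 3.36 ± 0.355 CPM in tumor, against 0.399 ± 0.151 CPM in small intestine (3.07 ± 0.31, edgeR adjusted p = 1.59e-05). Ascl2, a factor of intestinal stem cells and a Wnt target, rose with 3.15 ± 0.30, and the transporter gene Slc22a18 fell with -2.11 ± 0.14 (-1.24 under library totals). The noncoding RNA H19 had 3776 counts summed over tumor and 7 summed over small intestine, where 2 libraries were at 0. The direction of change thus differed among neighbours of Cdkn1c.

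**Figure D4:**
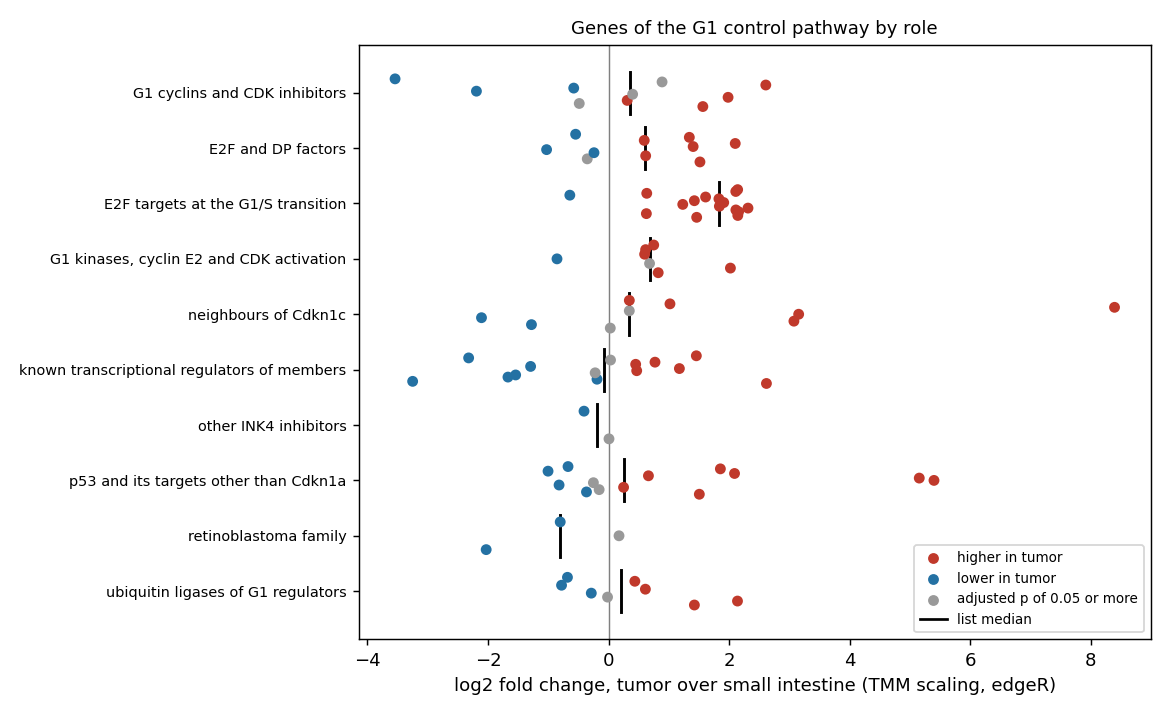
The log2 fold change (tumor over small intestine, TMM-scaled counts) of each gene of the 10 genes described here and of the 9 lists around them, with 1 point per gene coloured by call, 1 row per list and a vertical tick at the median of the list. The E2F targets lie mostly right of 0 with a median of 1.83, and the 3 retinoblastoma family genes have a median of -0.80, which is 0.07 under library totals.

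The protein-coding genes with the most similar profile over the 8 libraries were taken by the root mean square distance of centred log2(CPM + 1) values, as a description. Tfdp2 and Hif1an lay nearest to Cdkn1b, at 0.0375 and 0.0385, the shortest distances for any of the 10. Ccnd1 was nearest to Tacc3 (0.116) and Eml2 (0.133), and Ccne1 to Psip1 (0.0923) and Apobec3 (0.125). Cdkn1a was nearest to Tmem170 (0.0905) and Cs (0.123), and Cdkn2b to Calml4 (0.115) and Gchfr (0.119). Ccnd3 had Klhl25 (0.0684) and Phf21a (0.0709), Cdk6 had Gatad2b (0.115) and Zfp292 (0.118), and Ccnd2 had Alas1 (0.166) and Lgals9 (0.222). Cdkn2a (H2-Q4, 0.202, and Trim21, 0.223) and Cdkn1c (Chrnb1, 0.209, and Hs3st3b1, 0.210) had no neighbour closer than 0.2. None of the 10 genes was among the nearest of another.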

How the data were processed

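The authors deposited whole-number read counts per gene and, in a second table, FPKM values per gene, for 8 libraries of polyadenylated RNA (4 tumor, 4 small intestine). FastQC, STAR, Cufflinks 2.2.1, HTSeq 0.6.0 and GRCm38 are named per the submitters' processing notes. What each tool was used for, the annotation and the strand setting are not stated in these sources, so reads of overlapping opposite-strand genes cannot be told apart.

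The main test on counts was edgeR's quasi-likelihood F test (version 4.0.16, R 4.3.3), with TMM normalization, filterByExpr, tissue as the only term and Benjamini-Hochberg adjustment over all genes tested. An adjusted p under 0.05 was called, and SE is the absolute log2 fold change over the root of F. For FPKM, limma 3.58.1 with a mean trend was run on log2(FPKM + 1), which understates changes of low genes. FPKM shares were compared with exact 2-sided permutation tests in SciPy 1.17.1. Coordinates are those of the GRCm38 annotation, and symbols matched 42462 identifiers.

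The 10 genes, the 9 pathway lists and the 9 marker lists were chosen with earlier results of these data known. All 10 genes are named. From each pathway list up to 3 called genes with the largest change are named, with the largest of the less frequent direction, and Cdk4, Cdk2, Ccne2, Rb1, E2f1, Cdkn2c, Cdkn2d, Trp53, Myc and Klf4 in any case. A gene that this rule names is not reported here. The 2 nearest profiles are named for each gene, among protein-coding genes with a mean of at least 10 CPM.

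Replicate numbers come from the titles, and whether same-numbered libraries share a mouse is not stated in the labels. The fits carry no block, and a replicate block was run as an alternative. No 2 libraries of a group agreed within sampling noise. Alternatives were library totals, DESeq2 size factors and the DESeq2 1.42.0 Wald test, TMM without the 50 most abundant genes, no filter and a mean of at least 1 CPM. Others were a fold of at least 2, a pseudocount of 0.1, shares taken from counts, the replicate block and each library left out.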

Additional observations from a re-analysis of the deposited data

Results flagged for a closer look

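In 92 groups of 4 libraries examined with Dixon's criterion, 7 had a library far from the other 3, where chance gives about 1 in 20. The share of Ccnd1 in D-type cyclin FPKM was 57.9% in tumor replicate 4, with the other tumor libraries at 65.5% to 66.9%. Tumor replicate 4 was also apart for Eda2r (7.25 CPM, others 1.09 to 2.13), Ascl2 (34.9 CPM, others 25.3 to 25.8) and Cks1b (43.4 CPM, others 37.4 to 38.2). It was the highest tumor library for 6 of the 10 G1 genes. In small intestine, Cdc6 was at 5.12 CPM in replicate 1 (others 4.10 to 4.24), Fbxo4 at 26.1 CPM in replicate 4 (others 22.8 to 22.9), and H19 at 0.104 CPM in replicate 1 (others 0 to 0.0177). For H19 these were 6 counts in replicate 1, 1 in replicate 2 and 0 in replicates 3 and 4, too few to read as a difference.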

How the results depend on the processing

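Scaling by library totals had the widest effect: 10564 genes were higher and 2996 lower, against 6619 and 6030 with TMM, and 7 of the 10 G1 genes were higher, against 4. The log2 fold change turned to 0.39 for Ccnd2, 0.29 for Cdkn1b, 0.0087 for Cdc25a, 0.45 for Cdkn2d, 0.067 for Rbl2 and 0.086 for Fbxo4, and 11 of 18 list counts moved by over 1.5 times. Ccnd1, Ccne1, Cdkn1a, Cdkn1c and Cdkn2b kept their direction and call under each alternative run on their counts. A fold of at least 2 was a cutoff added to the same edgeR fit, not a separate test. It left 3887 genes lower and moved 10 of 18 list counts. It also ended the calls of Ccnd3 and Cdkn1b, whose log2 fold changes of 0.31 and -0.58 were too small for it. Cdkn2c changed sign within its error, at -0.020 with DESeq2 size factors, -0.019 with the DESeq2 Wald test, -0.0033 at a mean of 1 CPM, and -0.070 to 0.085 with 1 library left out. With 1 library left out the share differences ran over 21.5 to 27.5 points for Ccnd1, -18.9 to -15.2 for Ccnd2, -24.8 to -22.0 for Cdkn1a, 8.87 to 10.2 for Cdkn1b and 13.1 to 15.1 for Cdkn1c, and 3 libraries against 4 cannot give a p below 0.0571. Same-numbered libraries did not deviate together (correlations of -0.08, -0.14, 0.00 and -0.21), and 0 of 4 in either tissue correlated best with its own number. Such correlations cannot show whether same-numbered libraries share a mouse. With the replicate block 6301 genes were higher and 5592 lower, the shares gave 24.2, -17.0, -23.8, 9.40 and 14.4 points (exact adjusted p = 0.15, raw p no smaller than 0.125), and no call of the 10 genes in the count test changed, but the limma call of Cdkn2a on FPKM was lost (adjusted p = 0.0767), which left 6 of the 10 higher. Of the 10 genes Cdkn2a had the fewest counts, 34 in its lowest library.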
